A study of Mus musculus with 33 samples.

Results

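The effect of nicotinamide riboside (NR) on common lymphoid progenitors (CLPs) of old mice was measured by comparing 4 CLP libraries from NR-treated mice (O-NR) with 4 from untreated mice (O-WT). These 8 libraries, chosen by the cell type, treatment and cohort in their labels, are all the CLP libraries among the 33 libraries of the series. The study supplemented old mice with NR, a vitamin B3 form that raises NAD+, and sequenced total RNA of their hematopoietic stem cells (HSCs), CLPs and granulocyte–monocyte progenitors (GMPs) to ask whether the progenitors themselves were altered. By the study's methods the old mice were C57BL/6 males of 24 to 29 months with no engineered allele, and the O-NR mice were given NR in drinking water for 4 to 6 weeks. The labels of these libraries give no age. The labels call the O-WT libraries "WT" with the treatment "Control". The sources do not say how many mice went into a library. A single mouse per library is assumed, and the p-values measure the spread between these libraries. The study defines CLPs as lineage-negative cells with surface IL-7Rα and Flk2, the products of Il7r and Flt3, and its methods give no separate gate for the CLPs taken for RNA.

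CLPs are bone marrow progenitors that have largely given up the myeloid fates and can form B, T, NK and some dendritic cells. They depend on the receptors for interleukin 7 (Il7r) and Flt3 ligand (Flt3), open the antigen receptor loci with the recombinase genes Rag1 and Rag2, and decline with age. NR is phosphorylated by the NR kinases and turned into NAD+ by the Nmnat enzymes, and NAD+ is a cofactor of respiration and a substrate of sirtuins, PARPs and CD38.

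The labelled cell type was borne out by its markers, given here in CPM, read counts relative to the library total as scaled by edgeR's TMM factors. Il7r averaged 252 CPM over the 8 CLP libraries against 3.92 in HSCs and 2.79 in GMPs, Flt3 averaged 466 CPM against 13.1 and 22.6, and Dntt, which adds bases at recombination joints, averaged 1513 CPM against 3.49 and 3.22, all on a scale set over the 24 libraries of the 3 cell types. Il7r and Flt3 are genes of the study's CLP gate and Dntt is not. Between 4792380 and 12058957 reads were counted per CLP library. Reads were counted on 41797 to 49188 of 55376 gene symbols in a library, and 1971 olfactory and vomeronasal receptor genes, which blood progenitors have no known use for, together took between 2115 and 8303 CPM. The library O-WT 3 stood apart, with the fewest counted reads, the highest receptor level and the lowest median correlation with the other 7 libraries (r = 0.934 across genes). None of 6 library measures separated the groups beyond the spread of their libraries (two-sided exact permutation tests, p = 0.0857 to 0.886, where 0.0286 is the smallest p that 4 against 4 allows). Where the call of a named gene was lost without O-WT 3, its value without that library is given beside it.

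Few transcripts differed between O-NR and O-WT CLPs at an unadjusted p below 0.01, and none after correction for the number tested. Of 19909 genes that passed the filter on low counts (over 3 CPM in 4 or more of the 8 libraries), 82 had an unadjusted p below 0.01 (0.412%, under the nominal 1%), 31 of them higher (0.156%) and 51 lower (0.256%) in O-NR CLPs by edgeR's quasi-likelihood test. The study's criteria also name a fold change above 1.5, which 71 of the 82 exceeded, 22 higher and 49 lower. Refitted with 1 library left out, 26 to 59 of the 82 kept p below 0.01, with 31 without O-WT 3. With DESeq2's size factors in place of TMM the same test called 86, of which 41 were higher and 45 lower, so the split between directions moved with the scaling. No gene passed a Benjamini-Hochberg adjusted p of 0.05, the smallest being 0.765, while 640 genes (3.21%) had an unadjusted p below 0.05, 261 higher (1.31%) and 379 lower (1.9%). DESeq2's Wald test gave 117 genes at p below 0.01, 734 at p below 0.05 and also 0 after adjustment. The genes described are therefore ranked by an unadjusted p, and none of them holds after adjustment. Well-known members of a list that are given beside the genes the naming rule selected were chosen after their values were seen.

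**Figure D1:**
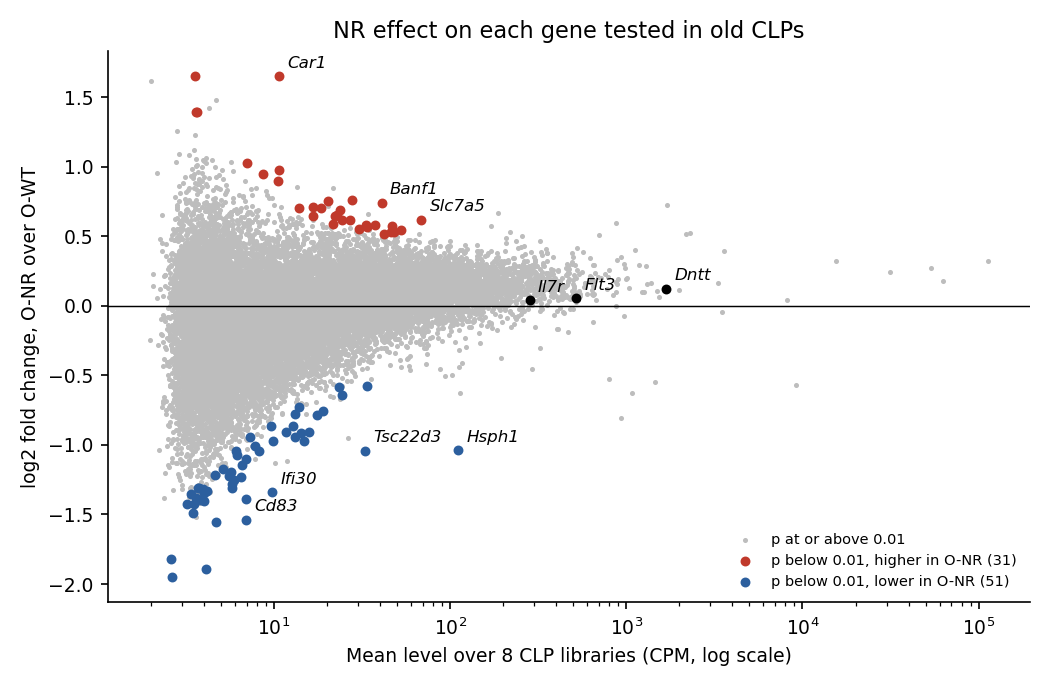
Each point is 1 of 19909 genes, with its mean level over 8 CLP libraries (CPM, log axis) against its log2 fold change of O-NR over O-WT. The 31 higher genes (red) and 51 lower genes (blue) with p below 0.01 lie at the edge of one cloud, most of the lower ones at low level, while Il7r, Flt3 and Dntt (black) lie close to 0.

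The lower and the higher genes differed in level. The 51 lower genes had a median level of 6.46 CPM, 15 of them above 10 CPM, and 68.6% were protein-coding, against 79.5% of all genes tested. The 31 higher genes had a median level of 22.7 CPM, 26 of them above 10 CPM, and 90.3% were protein-coding. The 4 values of each group did not overlap in 60 of the 82 genes, and in 505 (2.54%) of all genes tested, where 226 (1.14%) were higher and 279 (1.4%) lower.

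The identity genes of CLPs did not pass the threshold. Il7r was at 347, 254, 200 and 314 CPM in O-WT libraries 1 to 4 and at 307, 319, 271 and 251 CPM in O-NR libraries 1 to 4, with means of 279 ± 64.8 and 287 ± 31.5 (SD, n = 4). Flt3 was at 669, 449, 340 and 586 CPM in O-WT and at 650, 669, 427 and 373 CPM in O-NR, with means of 511 ± 146 and 530 ± 152 (SD, n = 4). Both genes overlapped fully between groups, and the fitted log2 fold changes were 0.04 (95% interval −0.41 to 0.49) for Il7r and 0.05 (−0.47 to 0.57) for Flt3. Of 16 identity genes, all tested, none had p below 0.01 and only Ccr9, a chemokine receptor for homing to thymus and gut, had p below 0.05 (31.3 ± 5.48 against 23.1 ± 6.03 CPM, SD, n = 4, log2 fold change −0.43).

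The recombination and early B cell genes were also below the threshold. Rag1 averaged 532 ± 157 CPM in O-WT and 558 ± 143 in O-NR CLPs, and Rag2 105 ± 22.2 and 94.4 ± 11.7 (SD, n = 4). None of 24 tested genes of the early B cell list had p below 0.05, and their median log2 fold change was 0.11, beside −0.0048 over all genes tested and −0.02 when O-WT 3 was left out. The B lineage regulators Ebf1 and Pax5 had log2 fold changes of 0.17 and 0.18. Of 31 lymphoid transcription factors none had p below 0.01 and Bcl6, a repressor best known from germinal centers, alone had p below 0.05 (13.4 ± 3.38 against 8.26 ± 1.22 CPM, SD, n = 4). None of 32 cytokine receptor and signaling genes had p below 0.05.

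The study was concerned with the balance of lymphoid and myeloid output. By gene set enrichment analysis it reported lower expression after NR, CLPs included, of a set of genes higher in GMPs than in CLPs. That set and that measure differ from those used here. For the 200 transcripts with the largest excess in GMPs over CLPs, of which 174 could be tested here, the median log2 fold change was 0.0031, with 5 higher and 4 lower at p below 0.05. For the 200 transcripts with the largest excess in CLPs the median was 0.05, with 5 higher and 5 lower. Over all genes tested 1.31% were higher and 1.9% lower at p below 0.05. Both sets were chosen on 16 libraries that include these 8, with treatment as a covariate, and both medians lay close to the −0.0048 of all genes.

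Of the gene lists, the one with most lower genes was that of antigen presentation and dendritic cells, a fate that CLPs can still take. This list, like the others, was written with earlier results of these data known, so its counts are a description and no test. Of 31 tested members, 6 had p below 0.01 and all 6 were lower, 9 had p below 0.05 and all 9 were lower, beside 0.256% and 1.9% of all genes tested that were lower at these thresholds, and the median log2 fold change was −0.31, beside −0.0048 over all genes. Ifi30, the lysosomal thiol reductase that unfolds antigens, was at 12.7, 10.5, 9.73 and 23.0 CPM in O-WT and at 4.78, 5.11, 6.12 and 6.25 CPM in O-NR. All 4 O-NR libraries were below all 4 O-WT libraries, and the fitted log2 fold change was −1.34 ± 0.32 (SE, p below 0.01).

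Cd83, a surface protein of mature dendritic cells and activated lymphocytes, followed the same order. It was at 8.33, 9.08, 5.51 and 18.5 CPM in O-WT and at 4.66, 3.79, 2.28 and 3.55 CPM in O-NR (log2 fold change −1.54 ± 0.39, SE, p below 0.01). The groups did not overlap, and O-WT 4 was the highest library for Cd83, Ifi30, Fscn1, Ccr7 and Apol7c. Without O-WT 4 the log2 fold change of Cd83 was −1.09, with p no longer below 0.01, and that of Ifi30 was −0.98, with p still below it.

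The other genes with p below 0.01 in this group were Traf1, Ctsh, Fscn1 and Apol7c. Traf1, a signaling adaptor of tumor necrosis factor receptors, was at 18.9, 20.7, 23.8 and 24.8 CPM in O-WT and at 14.6, 9.28, 13.2 and 14.1 CPM in O-NR (log2 fold change −0.79 ± 0.23, SE). Ctsh, the lysosomal protease cathepsin H, was at 13.9, 13.9, 23.5 and 15.2 CPM in O-WT and at 8.28, 8.71, 11.7 and 7.84 CPM in O-NR (log2 fold change −0.86 ± 0.27, SE). Both separated the groups. Without O-WT 3, the highest library for Ctsh, its log2 fold change was −0.65, with p below 0.05 but no longer below 0.01. The call of Ctsh was also lost without O-NR 1, at −0.81, and that of Traf1 without O-NR 2, at −0.66. Fscn1, the actin bundler of dendritic cell extensions, was at 9.20, 23.4, 19.8 and 29.6 CPM in O-WT and at 10.1, 8.90, 15.1 and 9.80 CPM in O-NR, with O-WT 1 among the O-NR values. Apol7c, an apolipoprotein L family member of dendritic cells, moved from −1.39 to −0.52 when O-WT 4 was left out, with p above 0.05, so its call rests on that library.

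Central genes of the dendritic program did not pass the threshold. The MHC class II chains H2-Aa and H2-Ab1 had log2 fold changes of −0.17 and −0.02, the invariant chain Cd74 −0.51 (p above 0.05), and Clec9a, Itgax and Irf8 −0.03, −0.06 and −0.03. Siglech, a marker of plasmacytoid dendritic cells, averaged 28.7 ± 13.6 CPM in O-WT and 19.3 ± 4.8 in O-NR (SD, n = 4, log2 fold change −0.57, p below 0.05). Ccr7 and Cpvl were the other members with p between 0.01 and 0.05, at log2 fold changes of −0.71 and −0.92. Fewer cells of a type and less RNA per cell cannot be told apart in these sorted bulk samples. Of 20 dendritic markers, Cd209a, Klk1 and Cd300c were too low to be tested. The summed level of all 20 was 918 to 1417 CPM in O-WT and 900 to 1337 CPM in O-NR. Of the 17 tested 2 had p below 0.01, Cd83 and Fscn1, both lower, beside 0.256% of all genes. Without O-WT 4 neither did, and whether dendritic cells in the sort take part in the lower levels was not tested.

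**Figure D2:**
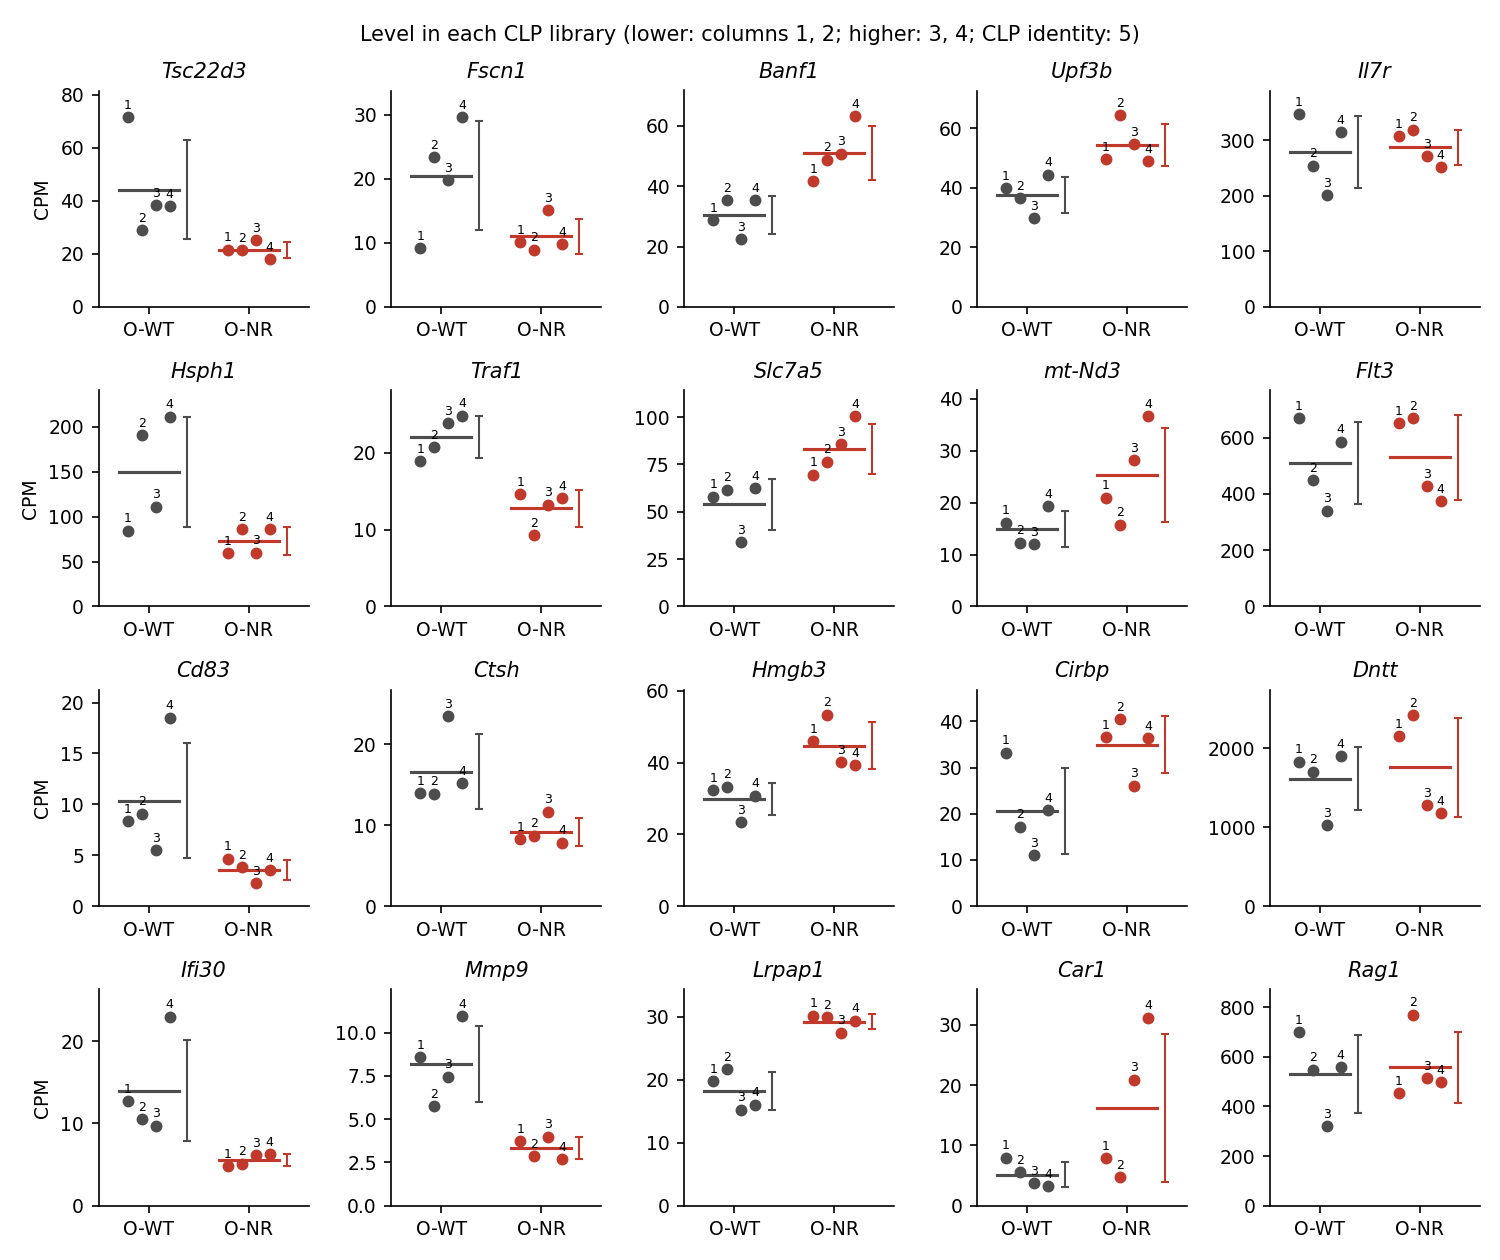
Level (CPM, axes from 0) of 20 genes in each CLP library, with the library number above each point, the group mean as a line and the SD as a bar (n = 4). Cd83, Ifi30, Traf1, Ctsh, Tsc22d3 and Mmp9 show O-NR below O-WT without overlap, Banf1, Slc7a5, Hmgb3, Lrpap1 and Upf3b show it above, Car1 is high in O-NR 3 and 4 alone, and Il7r, Flt3, Dntt and Rag1 overlap.

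Tsc22d3, which encodes the glucocorticoid-induced leucine zipper (Gilz), had the smallest p of all genes. It was at 71.5, 28.8, 38.4 and 38 CPM in O-WT and at 21.6, 21.3, 25.2 and 17.9 CPM in O-NR. Every O-NR library was below every O-WT library, the log2 fold change was −1.04 ± 0.22 (SE, adjusted p = 0.765, edgeR), and it stayed between −1.18 and −0.71, with an unadjusted p below 0.01, whichever library was left out. The gene is ENSMUSG00000031431.13, at chrX:140539528-140600659 on the minus strand of mm10.

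Most other glucocorticoid-responsive genes did not follow Tsc22d3. Of 28 tested, 2 had p below 0.01, both lower, beside 0.256% of all genes, and the median log2 fold change was −0.09. The second was Ddit4, an inhibitor of mTORC1, at 6.84, 3.74, 6.32 and 4.20 CPM in O-WT and at 2.10, 1.51, 2.71 and 2.21 CPM in O-NR (log2 fold change −1.31 ± 0.48, SE, p below 0.01), which passed in only 2 of 8 fits that left out a library and was at −1.20 (p below 0.05) without O-WT 3. Fkbp5, a standard readout of the glucocorticoid receptor, was at 75.7 ± 13.9 and 72.6 ± 11.6 CPM (SD, n = 4), and Per1 at 35.0 ± 11.1 and 27.6 ± 3.22 CPM (SD, n = 4).

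Hsph1, a cytosolic heat shock protein that exchanges the nucleotide of Hsp70, was the gene with the second smallest p. It was at 84.5, 191, 111 and 211 CPM in O-WT and at 59.0, 86.2, 59.7 and 85.7 CPM in O-NR. O-WT 1 lay within the O-NR range and the other O-WT libraries above it, and the log2 fold change of −1.04 ± 0.23 (SE, adjusted p = 0.932, edgeR) kept an unadjusted p below 0.01 whichever library was left out. The gene is ENSMUSG00000029657.15, at chr5:149614287-149636376 on the minus strand of mm10.

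The other genes of the heat shock and endoplasmic reticulum (ER) stress list had smaller changes. The list holds chaperones of the cytosol, ER and mitochondria together with regulators and targets of the stress responses, such as Atf4, Ddit3, Xbp1 and Asns, which are not chaperones. Hsph1 alone of its 45 tested members had p below 0.01, beside 0.256% of all genes that were lower at that threshold. Of the 45, 5 had p below 0.05 and all 5 were lower, beside 1.9% of all genes. Fold changes were below 0 in 34 of 45, and the median was −0.16. Hspa8, the constitutive Hsp70, was at 1508, 2060, 1080 and 2220 CPM in O-WT and at 1223, 1531, 849 and 1091 CPM in O-NR (log2 fold change −0.55, p above 0.05). Its J-domain partner Dnaja1 had a log2 fold change of −0.41 (p above 0.05) and the Hsp90 co-chaperone Chordc1 one of −0.43 (p below 0.05). The mitochondrial chaperonins Hspd1 and Hspe1 had log2 fold changes of 0.05 and −0.08, and Hsp90aa1 one of −0.12. In the ER, Wfs1, Sdf2l1 and Ficd had p below 0.05, at −0.75, −0.49 and −0.84, and the Hsp70 of the ER, Hspa5, was at −0.31.

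These counts moved with single libraries. Without O-WT 3, the library with the lowest summed level of the list, 13 of 45 members had p below 0.05 and all 13 were lower, 4 of them below 0.01, and the median was −0.26. In that fit 0.924% of all genes were lower at p below 0.05 and 0.181% at p below 0.01. Without O-WT 4, the library with the highest summed level (10050 CPM against 5404 to 9268 in the other O-WT libraries and 5815 to 8785 in O-NR), 1 had p below 0.05 and the median was −0.105, where 3.09% of all genes were lower at p below 0.05. With the receptor level of each library as a covariate, an alternative added after the data were seen, 11 had p below 0.01 and all 11 were lower. Calls rose over all genes too under that covariate, to 317 of 19909 (1.59%), of which 188 were higher and 129 lower (0.648%).

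Heat shock factor binds repeats of the letters GAA in alternating orientation, so pairs of such units were searched before the start sites of the genes of this list. GAANNTTC occurs in the 250 bases before 6.69% of 32851 mouse start sites in RefSeq (GRCm38.p6), TTCNNGAA before 7.17%, and one or the other before 12.8%. Both read the same on either strand and both can overlap. Counted by gene, with a match before at least 1 start site, 8 of the 38 tested genes of the list with an entry (21.1%) and 3932 of all 27025 genes (14.5%) have one. The 30 bases around the matches are shown for 3 genes, chosen after their values were seen because they differed in log2 fold change, with the matches in capitals, 5′ to 3′ on the strand of the gene.
Hsph1: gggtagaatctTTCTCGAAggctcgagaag
Dnaja1: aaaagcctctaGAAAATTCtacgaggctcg
Hspe1: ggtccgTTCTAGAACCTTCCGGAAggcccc
The Hsph1 window is chr5:149636351-149636380 on the minus strand, the Dnaja1 window chr4:40722333-40722362 and the Hspe1 window chr1:55088053-55088082, both on the plus strand. The Hsph1 match lies before the RefSeq starts of the gene but inside the Gencode span given above, which begins further upstream. Hspe1 has 3 overlapping matches, and Hsph1 and Dnaja1 have 1 each. A match is a run of letters and not a measured binding site.

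Of 35 tested genes of the NF-kappaB and inflammatory list, 3 had p below 0.01 and were lower, beside 0.256% of all genes, and Cd83 and Traf1 are 2 of these, shared with the dendritic list. The third was Ereg, a ligand of the EGF receptor, at 3.73, 5.34, 9.89 and 4.47 CPM in O-WT and at 2.45, 1.71, 1.28 and 3.31 CPM in O-NR. The groups did not overlap (log2 fold change −1.41 ± 0.49, SE, p below 0.01), and without O-WT 3 the value was −1.03 (p above 0.05). The feedback inhibitors Nfkbia and Tnfaip3 had log2 fold changes of −0.27 and −0.03, Nfkb1 had one of −0.05, and the median of the list was −0.14. None of 50 interferon-stimulated genes had p below 0.01. The GTPases Iigp1 and Gbp7 had p below 0.05, at 0.85 and 0.41, beside 1.31% of all genes that were higher at p below 0.05. Iigp1 was highest in O-NR 4, at 62.7 CPM against 10.1 to 24.9 in the other O-NR libraries and 10.9 to 19.1 in O-WT, and its log2 fold change without O-NR 4 was 0.06 (p above 0.05).

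Markers of neutrophils, which a CLP sort should leave out, were present at low level. All 13 tested markers had log2 fold changes below 0, with a median of −0.67, 4 had p below 0.05 and 1, the gelatinase Mmp9, had p below 0.01 (8.58, 5.74, 7.46 and 10.9 CPM in O-WT and 3.73, 2.84, 3.99 and 2.69 CPM in O-NR). Over all genes tested 1.9% were lower at p below 0.05 and 0.256% at p below 0.01. Mmp9 separated the groups, and without O-WT 4 its p was no longer below 0.01. S100a9, an alarmin that neutrophils hold in large amounts, was at 35.4, 12.2, 29.2 and 61.5 CPM in O-WT and at 49.0, 20.9, 0.285 and 0.980 CPM in O-NR. The alarmin subunit S100a8 and the granule genes Ngp and Camp were likewise lowest in O-NR 3 and O-NR 4 and within the O-WT range in O-NR 1 and O-NR 2, so the low values came from 2 of the 4 O-NR libraries. The summed level of 15 neutrophil markers was 101 to 285 CPM in O-WT and 221, 162, 58.7 and 73.4 CPM in O-NR 1 to 4, and its part in the calls of myeloid genes was not tested.

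Myeloid progenitor genes had values on both sides of 0. Elane, the neutrophil elastase of early granules, averaged 15.3 ± 8.38 CPM in O-WT and 25 ± 9.92 in O-NR (SD, n = 4, log2 fold change 0.72, p below 0.05), and Mpo 307 ± 85.1 and 399 ± 60.8 (SD, n = 4, log2 fold change 0.38, p above 0.05). Without O-WT 3, whose Elane level of 27.7 CPM was the highest of O-WT, the log2 fold change of Elane was 1.17 (p below 0.01). Of 36 tested members of the myeloid list 1 was lower at p below 0.01, Mmp9, beside 0.256% of all genes, and the median was −0.25.

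Red cell genes were high in the same pair of O-NR libraries. Car1, the carbonic anhydrase of red cells and their precursors, was at 7.96, 5.61, 3.73 and 3.28 CPM in O-WT and at 7.92, 4.74, 20.9 and 31.2 CPM in O-NR. Its log2 fold change of 1.65 ± 0.41 (SE, p below 0.01) thus came from O-NR 3 and O-NR 4, the others lying within the O-WT range, and it was 1.11 (p below 0.05) without O-NR 4. Aqp1, the water channel, was at 3.98, 3.74, 5.03 and 5.65 CPM in O-WT and at 6.06, 6.06, 10.8 and 14.7 CPM in O-NR, without overlap (log2 fold change 1.02 ± 0.37, SE, p below 0.01), and passed in 3 of the 8 fits that left out a library. Without O-WT 3 the value of Aqp1 was 1.07, with p just above 0.01. The globins Hba-a1 and Hbb-bs, by contrast, stayed at or below 2.45 CPM in every library. Over 16 red cell markers the sum was 74.8 to 96.0 CPM in O-WT and 95.1, 74.7, 136 and 198 CPM in O-NR 1 to 4.

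**Figure D3:**
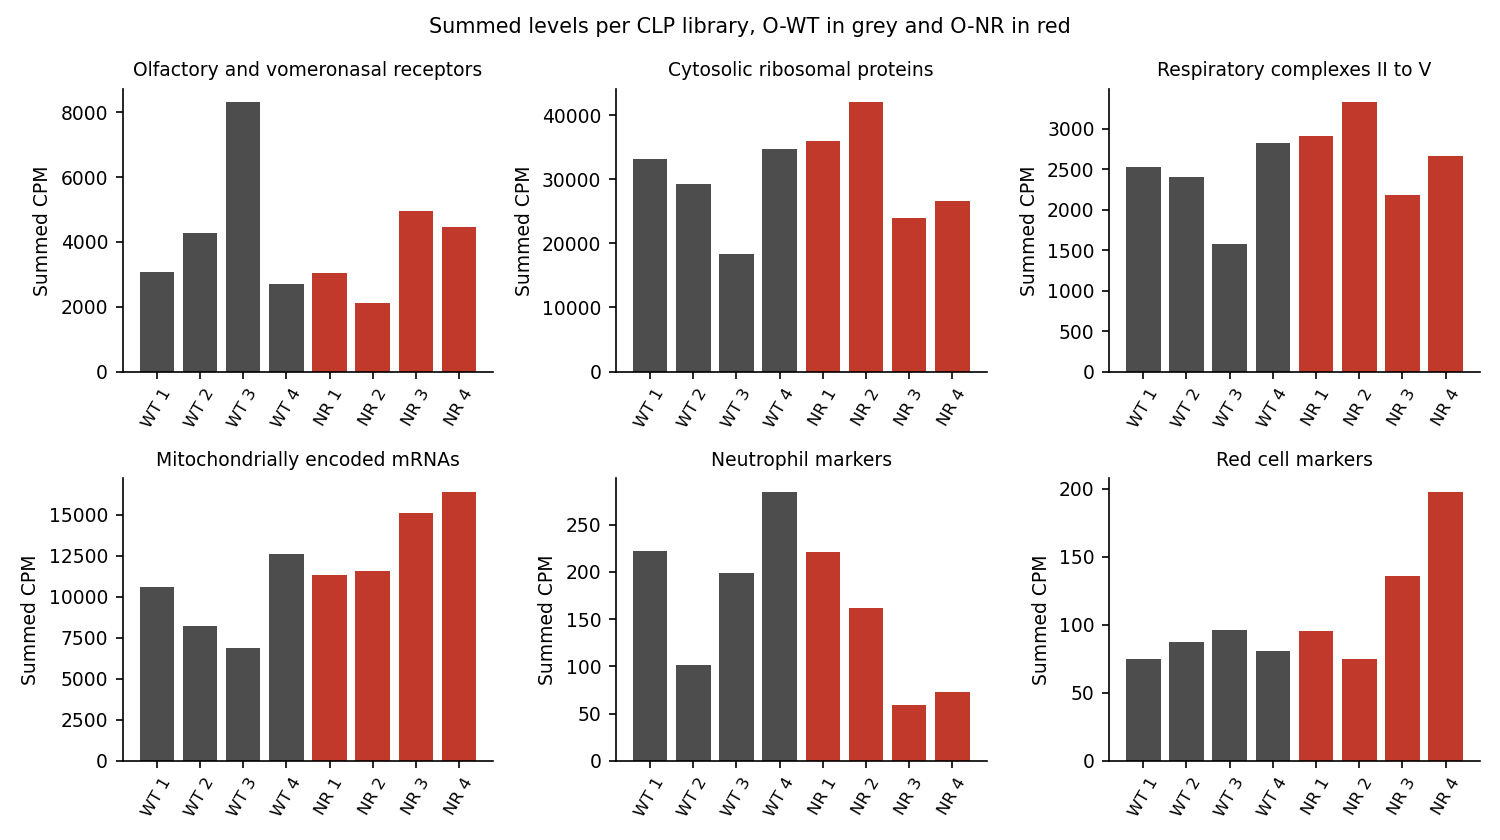
Summed level (CPM, bars from 0) of receptor genes not used by blood cells and of 5 gene groups in each of the 8 CLP libraries, O-WT in grey and O-NR in red. O-WT 3 has the highest receptor level (8303 CPM) and the lowest ribosomal protein and respiratory levels, and O-NR 3 and 4 have the lowest neutrophil and the highest red cell and mitochondrial mRNA levels.

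Genes that make NAD+ gave no call. None of 23 tested genes of NAD synthesis had p below 0.05, and the median log2 fold change was 0.09. Nmrk1, the kinase that admits NR to the pathway, was at 13.8, 9.08, 12.3 and 12.3 CPM in O-WT and at 11.5, 11.2, 9.26 and 16.5 CPM in O-NR (log2 fold change 0.03 ± 0.27, SE). Nampt, the rate-limiting enzyme of the salvage of nicotinamide, was at 46.0, 46.5, 44.3 and 56.4 CPM in O-WT and at 60.7, 67.2, 49.0 and 72.1 CPM in O-NR, where 3 of 4 libraries exceeded the O-WT range (log2 fold change 0.37 ± 0.18, SE, p above 0.05). Nadsyn1, which ends the routes from nicotinic acid and tryptophan, averaged 16.7 ± 1.75 and 11.8 ± 2.62 CPM (SD, n = 4, log2 fold change −0.50, p above 0.05), and the mononucleotide enzymes Nmnat1 and Nmnat3 had log2 fold changes of 0.19 and 0.30.

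Genes that use NAD+ gave no call either. None of 29 tested had p below 0.05, and the median was 0.02. The NAD glycohydrolases Cd38 and Bst1 averaged 5.83 ± 1.44 and 11.7 ± 1.96 CPM in O-WT and 6.42 ± 2.69 and 15.6 ± 6.94 CPM in O-NR (SD, n = 4). Parp1 had a log2 fold change of 0.06, Sirt1 of 0.13 and the mitochondrial deacetylase Sirt3 of −0.24. Sirt5, which removes succinyl groups in mitochondria, had the smallest p of the list (log2 fold change −0.45 ± 0.22, SE, p above 0.05).

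Transcripts of the mitochondrial genome ran above O-WT. All 8 tested mRNAs had log2 fold changes above 0, with a median of 0.52, 3 had p below 0.05 and 1, mt-Nd3, p below 0.01. Over all genes tested 1.31% were higher at p below 0.05 and 0.156% at p below 0.01. mt-Nd3, a complex I subunit, was at 16.2, 12.3, 12 and 19.3 CPM in O-WT and at 21, 15.7, 28.2 and 36.6 CPM in O-NR (log2 fold change 0.75 ± 0.24, SE, p below 0.01). mt-Nd1 was at 1419, 1072, 886 and 1746 CPM in O-WT and at 1595, 1726, 2349 and 2791 CPM in O-NR (log2 fold change 0.72 ± 0.30, SE, p below 0.05). Without O-WT 3 the value of mt-Nd3 was 0.67, with p no longer below 0.01. In both genes O-NR 3 and O-NR 4 held the highest values, and O-NR 1 and O-NR 2 lay within or just above the O-WT range. These mRNAs took 0.981 ± 0.126% of all counted reads in O-WT and 1.30 ± 0.264% in O-NR (SD, n = 4, two-sided exact permutation test, p = 0.114). Copies of mitochondrial DNA in the nuclear genome can share reads with these genes, and the other 5 mRNAs, mt-Nd4l and mt-Co2 among them, were at or below 0.994 CPM in every library.

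Nuclear genes of respiration ran slightly above O-WT. All 40 tested genes of complexes II to V had log2 fold changes above 0, with a median of 0.25, while 4 had p below 0.05 and none below 0.01. Of 37 genes of complex I, 31 were above 0 and 3 had p below 0.05, with a median of 0.11. Over all genes tested 1.31% were higher at p below 0.05. Ndufs4, a complex I subunit, separated the groups, at 36.8, 34.3, 23.5 and 32.9 CPM in O-WT and at 40.2, 51.7, 46.9 and 37.9 CPM in O-NR. Uqcr10, Atp5g2 and Cox6b1, of complexes III, V and IV, had log2 fold changes of 0.53, 0.48 and 0.42. Genes of these complexes are expressed together, so the number above 0 is not a count of independent results.

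These medians moved with O-WT 3. Without that library the median of complexes II to V was 0.11 and none had p below 0.05, and the median of complex I was 0.0050. The cytosolic ribosomal proteins behaved the same way, with 76 of 77 above 0, none at p below 0.05 and a median of 0.16 with all libraries, and with 42 of 77 above 0 and a median of 0.0080 without O-WT 3. Genes of DNA replication and S phase had a median of 0.22, with 40 of 44 above 0, and of 0.06 without it. With the receptor level as a covariate, an alternative added after the data were seen, the medians were 0.14 for complexes II to V, −0.00365 for the ribosomal proteins and 0.14 for S phase, and that of the mitochondrial mRNAs was 0.51.

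In glycolysis 2 of 35 tested genes were higher and 2 lower at p below 0.05, beside 1.31% and 1.9% of all genes, and the median was 0.14. Slc16a1, the lactate transporter MCT1, was at 57.0, 58.9, 39.1 and 55.3 CPM in O-WT and at 60.6, 74.9, 79.1 and 77.9 CPM in O-NR, without overlap (log2 fold change 0.47 ± 0.18, SE, p below 0.05). The triose isomerase Tpi1 was the other higher gene (log2 fold change 0.44) and the muscle enolase Eno3 was lower (−0.77). Of 31 tested genes of apoptosis 1 was lower at p below 0.01, beside 0.256% of all genes. This was Nol3, an inhibitor of caspase activation, at 7.46, 10.7, 11.2 and 6.93 CPM in O-WT and at 4.08, 3.03, 4.42 and 3.92 CPM in O-NR (log2 fold change −1.23 ± 0.37, SE). The groups did not overlap, and the p of Nol3 was no longer below 0.01 without O-WT 2.

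Among the higher genes the clearest was Banf1, which encodes a small protein that crosslinks DNA and ties it to the nuclear envelope. It was at 28.8, 35.4, 22.4 and 35.4 CPM in O-WT and at 41.7, 48.9, 50.9 and 63.2 CPM in O-NR (log2 fold change 0.74 ± 0.19, SE, p below 0.01). All O-NR libraries exceeded all O-WT libraries, and p stayed below 0.01 whichever library was left out.

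Lrpap1, an ER chaperone of lipoprotein receptors, was at 19.8, 21.6, 15.2 and 16 CPM in O-WT and at 30.2, 29.9, 27.5 and 29.4 CPM in O-NR. The O-NR values had an SD of 1.22 CPM, and the log2 fold change of 0.69 ± 0.20 (SE, p below 0.01) kept p below 0.01 whichever library was left out. Slc7a5, the light chain of the leucine transporter LAT1, was at 57.9, 61.7, 33.9 and 62.6 CPM in O-WT and at 69.7, 76.4, 85.8 and 101 CPM in O-NR, without overlap (log2 fold change 0.62 ± 0.20, SE, p below 0.01). Without O-NR 4 the p of Slc7a5 was no longer below 0.01.

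Hmgb3, Eny2, Upf3b, Prkag1 and Tmbim4 were also higher, each with separated groups, a condition of the naming rule. Hmgb3, a chromatin protein of the HMG box family that is known from lymphoid and myeloid progenitors, averaged 29.9 ± 4.49 CPM in O-WT and 44.7 ± 6.50 in O-NR (SD, n = 4, log2 fold change 0.58). Eny2, shared by the SAGA coactivator and the mRNA export machinery, averaged 17.6 ± 2.14 and 27.7 ± 5.67 CPM (SD, n = 4, log2 fold change 0.65). Upf3b, of nonsense-mediated decay, averaged 37.6 ± 6.09 and 54.4 ± 7.07 CPM (SD, n = 4, log2 fold change 0.53). Prkag1, a nucleotide-binding subunit of AMPK, averaged 21.2 ± 5.66 and 32.6 ± 2.38 CPM (SD, n = 4, log2 fold change 0.62), and Tmbim4, a membrane protein that inhibits apoptosis, had a log2 fold change of 0.71. Each of these 5 lost p below 0.01 in 2 to 5 of the 8 fits that left out a library, Upf3b and Prkag1 among others without O-WT 3, at 0.44 and 0.47. Cirbp, the cold-inducible RNA-binding protein, chosen after its values were seen, was at 33.2, 17.2, 11 and 20.8 CPM in O-WT and at 36.6, 40.5, 26.1 and 36.4 CPM in O-NR (log2 fold change 0.76, p below 0.01), with O-WT 1 among the O-NR values, and at 0.57 without O-WT 3, with p no longer below 0.01.

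Among the remaining lower genes Fhod3, a formin that assembles actin, was at 15.3, 12.7, 28.9 and 17.4 CPM in O-WT and at 11.1, 9.28, 9.12 and 9.68 CPM in O-NR. The groups did not overlap (log2 fold change −0.92 ± 0.27, SE, p below 0.01), but without O-WT 3, the highest library and the one with most receptor reads, the value was −0.62 (p below 0.05). Mdga2, known from synapses, was also highest in O-WT 3, at 32.9 CPM against 12.7 to 18.4 in the other O-WT libraries and 7.98 to 12.4 in O-NR, and its log2 fold change of −0.97 was −0.61 (p below 0.05) without that library. Prss39, a serine protease known from testis, averaged 4.21 ± 0.659 and 1.05 ± 0.670 CPM (SD, n = 4), on as few as 2 reads in a library. Ap1s3, of a vesicle adaptor complex, had a log2 fold change of 0.56 and Atn1, the transcriptional corepressor atrophin 1, one of 1.39, with groups apart in both. Without O-WT 3, their lowest library, they were at 0.45 and 1.22, with p no longer below 0.01. The predicted genes Gm44950, AC121973.1, Gm42664 and Gm25834, of no known role, had log2 fold changes of −1.56, −1.90, 0.70 and 1.65, and Gm42664 was at 0.55 without O-WT 3, with p no longer below 0.01.

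**Figure D4:**
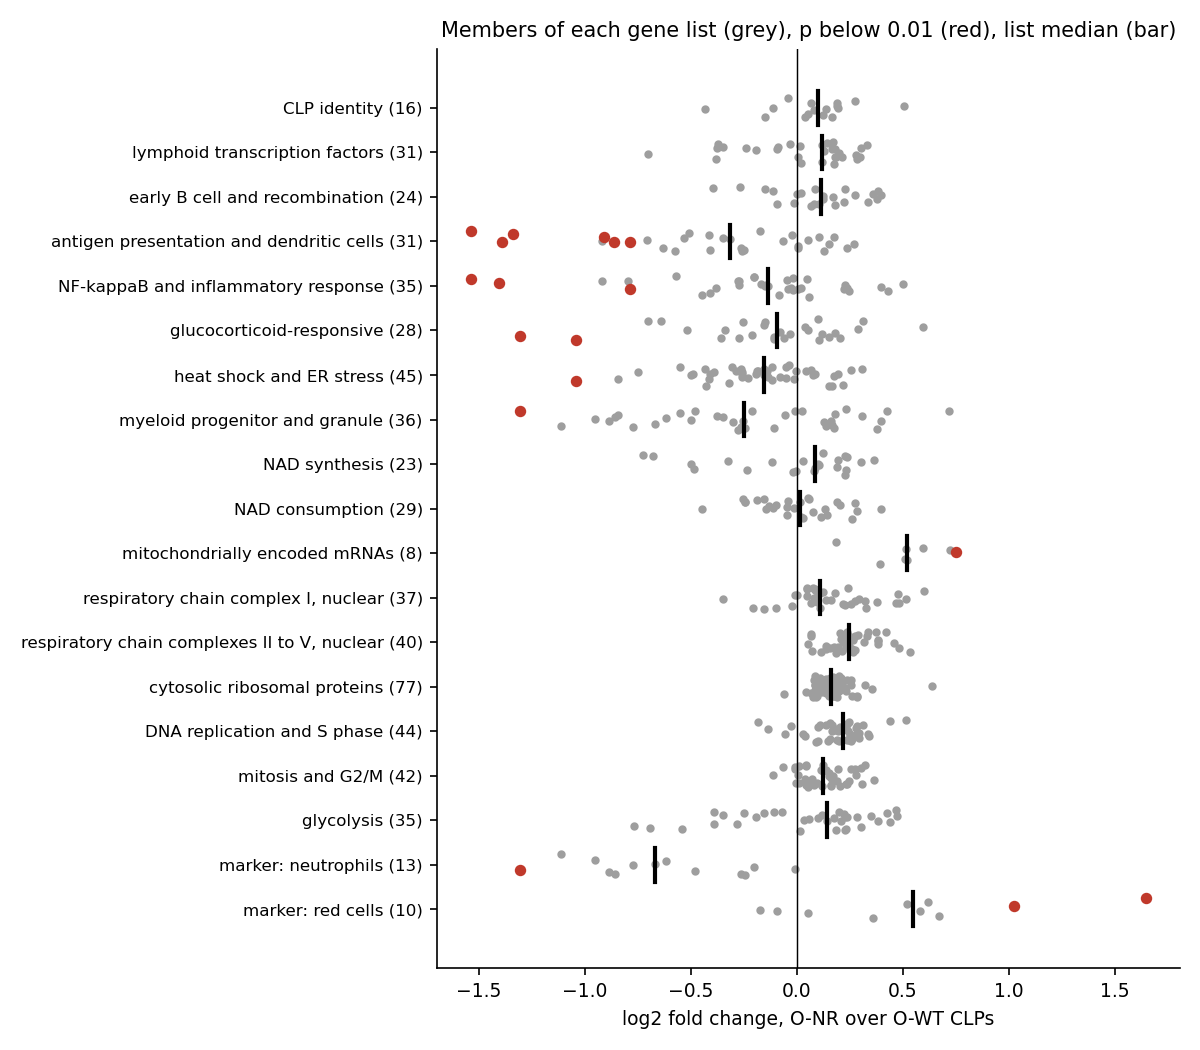
Each point is a tested member of 1 of 19 gene lists (number tested in brackets) at its log2 fold change of O-NR over O-WT CLPs, red where p was below 0.01, with a bar at the list's median. The 6 red points of the dendritic list and the wide spread of the neutrophil and red cell markers stand beside narrow lists of ribosomal proteins (median 0.16) and CLP identity (median 0.10).

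The same contrast in the other cell types of cohort 2 puts the CLP values in place. At p below 0.01, 135 of 17364 genes tested in HSCs (0.777%, and 4.06% at p below 0.05) and 133 of 13486 in GMPs (0.986%, and 4.83% at p below 0.05) were called. The deposited files carry the same 8 numbers in their names in each of the 3 cell types, so these libraries may share mice. The main test of differences between cell types does not take this into account, and a fit with a block for it is given below. Hsph1 was lower in all of them, with log2 fold changes of −0.88 ± 0.21 in HSCs (p below 0.01), −1.04 ± 0.23 in CLPs and −0.77 ± 0.18 in GMPs (SE, p below 0.01). Tsc22d3 was at −0.69 ± 0.21 in HSCs (p below 0.01), −1.04 ± 0.22 in CLPs and −0.24 ± 0.11 in GMPs (SE, p below 0.05). The difference in response between CLPs and HSCs did not pass the threshold for either gene by the interaction test over 24 libraries (−0.17 ± 0.36 for Hsph1 and −0.32 ± 0.35 for Tsc22d3, SE, p above 0.05 in both), which leaves wide room for a difference. Slc7a5 and Slc16a1 had positive values in HSCs too, at 0.57 ± 0.14 and 0.43 ± 0.13 (SE).

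Banf1 and Ifi30 had smaller fitted changes in HSCs and GMPs, while Traf1 had a smaller one in HSCs and one of opposite sign in GMPs. Banf1 was at 0.12 in HSCs and 0.04 in GMPs, and the differences from CLPs, of 0.62 ± 0.29 and 0.76 ± 0.29 (SE), had p above 0.01 and below 0.05. Traf1 was at −0.20 in HSCs and 0.57 in GMPs, where the difference of −1.29 ± 0.31 (SE, p below 0.01) passed the unadjusted threshold. Ifi30 was at −0.27 in HSCs and −0.24 in GMPs, with differences of −1.08 and −1.05 (p below 0.01 in both). Without the CLP library O-WT 4 both differences were −0.72, with p below 0.05 but no longer below 0.01. The difference from HSCs also lost p below 0.01 without the CLP library O-NR 1 or O-NR 2. The same held without the HSC library O-WT 2, O-WT 3, O-NR 1 or O-NR 4, alternatives added after the data were seen. Cd83 averaged 1.38 CPM in HSCs and 1.29 CPM in GMPs, with at most 2.53 and 2.43 CPM in a library, too low to be tested in either alone. It passed the filter of the model of 24 libraries on its levels in CLPs. There its difference between CLPs and HSCs was −3.12 ± 0.62 (SE, adjusted p = 0.0676, edgeR). This value rests in part on HSC counts near the floor and is given as a description. Over 22573 genes 91 had p below 0.01 for a difference between CLPs and HSCs (0.403%) and 91 for one between CLPs and GMPs (0.403%), with 1 (0.00443%) and 0 after adjustment, and 519 (2.3%) and 655 (2.9%) had an unadjusted p below 0.05 by edgeR. The adjusted p of Cd83 moved with the settings by the same edgeR test. It was 0.0152 without the CLP library O-WT 3, 0.0377 without the HSC library O-NR 3 and 0.000993 with no filter on low counts. In all other settings it was above 0.05, being 1 without the CLP library O-WT 4. With libraries of the same number and treatment as a block it was 0.19. That block left 74 genes with p below 0.01 in each comparison, and 1 and 0 after adjustment.

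The 1 gene past adjustment for a difference between CLPs and HSCs was Ighm, the constant region of IgM. In CLPs it was at 637, 522, 329 and 559 CPM in O-WT and at 604, 711, 547 and 566 CPM in O-NR, with a log2 fold change of 0.24 ± 0.24 (SE, p above 0.05). In HSCs the log2 fold change was −4.86 ± 0.81 (SE, p below 0.01, adjusted p = 0.15, edgeR), on values of 85.3, 13, 91 and 422 CPM in O-WT and 16.1, 1.57, 2.08 and 2.07 CPM in O-NR. The HSC library O-WT 4 was the highest and O-WT 2 lay below O-NR 1, so the groups overlapped. Other immunoglobulin genes were carried by single HSC libraries, Ighd by O-NR 1 at 33.7 CPM against at most 1.79 in the other HSC libraries and Ighv1-69 by O-WT 1 at 9.94 CPM against at most 0.281. The summed level of 18 markers of mature B and plasma cells, Ighm and Ighd included, was 209, 87.5, 239 and 775 CPM in the O-WT and 212, 53.4, 131 and 50.8 CPM in the O-NR HSC libraries, and its part in the difference was not tested. Without the HSC library O-WT 4, an alternative added after the data were seen, the log2 fold change of Ighm in HSCs was −3.64 and the difference from CLPs 3.85 (adjusted p = 0.00226, edgeR).

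**Figure D5:**
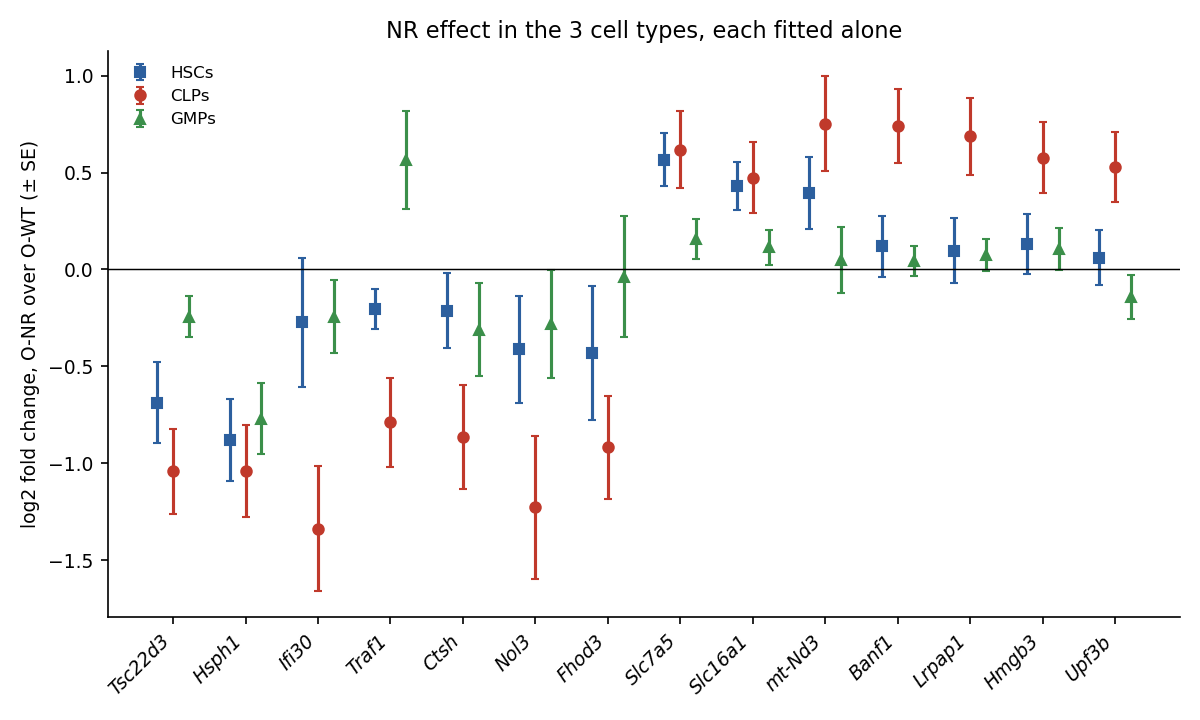
log2 fold change of O-NR over O-WT (± SE, 4 against 4 libraries each) for 14 genes in HSCs, CLPs and GMPs, each cell type fitted alone. Hsph1 lies below 0 in each of them, Slc7a5 and Slc16a1 lie above 0 in HSCs and CLPs, and Ifi30, Banf1 and Lrpap1 lie nearer to 0 outside CLPs.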

How the data were processed

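Total RNA of sorted CLPs was sequenced by the authors in 8 libraries, 4 O-WT and 4 O-NR, grouped here by their labels. The authors trimmed reads with trim galore 0.4.3 and cutadapt 1.12, aligned them to mm10 with STAR using Gencode M22, and counted reads per gene with featureCounts. The counts the authors deposited are whole numbers, not normalized, for 55376 symbols. Strand and multi-mapping settings are not given in the sources used here, which leaves genes that overlap another gene or have close copies uncertain. Positions come from Gencode M21 on mm10 (GRCm38), in which 54402 symbols were found.

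Genes above 3 CPM in at least 4 of the 8 libraries were kept, scaled by TMM and compared with edgeR 4.0.16 (quasi-likelihood test, R 4.3.3, limma 3.58.1) at p below 0.01, after the study's threshold, beside a Benjamini-Hochberg adjusted p below 0.05. Fold changes are O-NR over O-WT. HSCs and GMPs were fitted alone in the same way, and differences between cell types in 1 model of 24 libraries. Other scalings and filters, DESeq2 1.42.0, a factor of unwanted variation, thinned counts, the replicate number as a block and leaving out each library were tried, and the scripts were tested on simulated data. Library measures were compared by exact permutation over 70 regroupings. No pair of libraries agreed within sampling noise (smallest chi-square per degree of freedom 5.14). Between 4792380 and 12058957 counted reads per library set the precision of low genes.

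Named genes are the CLP identity list, up to 12 genes per direction with the smallest p among those with p below 0.01 and groups that do not overlap, up to 3 genes per list by p, 9 genes of NAD+ metabolism, and up to 3 per direction for each difference between cell types. The members and the 34 gene lists were chosen with earlier results of these data known. A result on 1 gene is not reported here.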

Additional observations from a re-analysis of the deposited data

Results flagged for a closer look

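Of 218 groups of 4 libraries tested for a single library far from the others (the gap to the nearest divided by the range of the group, past the 95% critical value of Dixon), 9 stood out, where chance gives about 1 in 20. The 9 are thus no more than chance alone would give, and their values are listed as a description. O-WT 3 was the far library in 4 of them. It had a ribosomal protein share of 2.36% against 3.16% in the nearest O-WT library (gap over range 0.974), and Ctsh at 23.5 CPM against 15.2 (0.861), Slc7a5 at 33.9 CPM against 57.9 (0.838) and Gm42664 at 8.92 CPM against 15.2 (0.907). O-WT 4 was far above the other O-WT libraries in Apol7c, at 23.3 CPM against 6.81 (0.832), and in Ficd, at 9.03 CPM against 6.59 (0.887). Among O-NR libraries, O-NR 1 stood out in Ficd at 5.01 CPM against 3.60 (0.968) and in Nadsyn1 at 15.7 CPM against 10.9 (0.884), and O-NR 2 in Parp1 at 610.0 CPM against 422 (0.852).

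The log2 fold change of Ighm under NR was 5.12 higher in CLPs than in HSCs (adjusted p = 7.14e-05 by edgeR's interaction test), with −4.86 in HSCs and 0.24 in CLPs.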

How the results depend on the processing

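The count of 82 genes at p below 0.01 was 336 with no filter on low counts, 131 with edgeR's filterByExpr, 268 in 1 model of 24 libraries, 661 with 1 factor of unwanted variation and 317 with the receptor level as a covariate, the last added after the data were seen. It ran from 36 (without O-WT 2) to 146 (without O-WT 4) when a library was left out, and was 142 without O-NR 3. After adjustment the count of 0 became 1 with no filter and 0 to 1 when a library was left out, the 1 gene being Car1 in both cases (without O-NR 2 in the second). Lower genes made up 62.2% of calls with TMM, 52.3% with DESeq2's size factors, 29% with the factor of unwanted variation and 78.7% without O-NR 4. The differences between CLPs and HSCs, 91 genes, became 596 with no filter and ran from 74 to 144 (without the CLP library O-NR 1) when a CLP or HSC library was left out, the HSC libraries being added after the data were seen. The 1 gene of that comparison past adjustment became 2 without the CLP library O-WT 3 or the HSC library O-NR 3 (Ighm and Cd83 in both) and with upper quartile scaling (Ighm and Coro2a), and 14 with no filter, Ighm and Cd83 among them. Those between CLPs and GMPs, also 91, became 468 with no filter and ran from 58 (without O-WT 3) to 191 (without O-WT 4), with 161 without O-WT 1, 154 without O-NR 1, 153 without O-NR 3 and 155 without O-NR 4. The cause of these moves was not tested. None of the 82 fold changes changed sign under 19 alternatives, where tested there. The 82 were chosen by p on these same libraries, so a kept sign is no separate support.

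With the replicate number as a block 185 genes had p below 0.01 and 3 passed adjustment, S100a9, Hsph1 and Tsc22d3. The deviations of same-numbered libraries correlated at 0.114, −0.077, 0.39 and −0.218, with a mean of 0.0525. Libraries of different number had a mean of −0.0154, from −0.565 to 0.442. These few values cannot settle whether the numbers pair the libraries, which was not tested.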
